A study of Mus musculus with 46 samples.

Results

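The translational efficiency of mRNAs was measured in untreated control cells of the murine pancreatic cancer line EPP2, as the log2 ratio of ribosome footprints to RNA for each gene in each culture. All control cultures that received DMSO were taken, which are 6 of the 23 cultures and 12 of the 46 libraries of the series, with 6 libraries of footprints and 6 of RNA. The study engineered EPP2 cells with a doxycycline-inducible Cas9 and used a single cell-derived clone of them for its CRISPR screen. Whether that clone gave these libraries is not stated. The controls carry the genotype label WT. For CRISPR experiments in general the methods name guides against non-coding regions, or omission of doxycycline, as controls, without saying which applied to these libraries. DMSO, the solvent of the mTOR inhibitor torin 1, was given for 2 h. Cells with an induced knockout of Ctu1 (Ctu1 iKO, 300 ng/ml doxycycline for 4 days, 5 cultures with DMSO for 2 h) and control cells with 300 nM torin 1 for 2 h (6 cultures) were used only to see whether the pattern differed there. These are bulk libraries, so fewer cells of a type and less RNA per cell cannot be told apart. The methods name 2 independent replicates and the legends more, so the spread between the 6 cultures may in part be technical.

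Ribosome profiling sequences the short stretches of mRNA that ribosomes protect from RNase, so that the footprints of a gene count the ribosomes on its coding sequence. Divided by the abundance of the mRNA, they give its ribosome load, which is commonly read as translational efficiency. Most mRNAs are limited at initiation, where the small ribosomal subunit scans the 5′ UTR for a start codon. Upstream start codons, strong RNA structure and binding proteins can lower initiation, while the mRNAs of ribosomal proteins and many translation factors begin with a pyrimidine tract, the TOP motif, through which mTORC1 controls them.

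The start codons of a few mRNAs at both ends of the range are shown first, because the bases at −3 and +4 around the ATG are the best-known sequence feature of initiation. The ATG is in capitals, with 6 bases before it and 4 after it, in the GRCm38 build with GENCODE M21 transcripts.
Wdr89 (chr12:75633476-75633478, minus strand), high: actgacATGgaga
Lrrc58 (chr16:37868496-37868498, plus strand), high: ggcgggATGgagg
Slc7a11 (chr3:50443259-50443261, minus strand), high: actgccATGgtca
Ndufc2 (chr7:97400189-97400191, plus strand), high: ctcaagATGatga
Traf3 (chr12:111237579-111237581, plus strand), low: cctaagATGgagt
Uhmk1 (chr1:170215238-170215240, minus strand), low: cgcaccATGgcgg
Atxn7l3 (chr11:102294997-102294999, minus strand), low: ttacaaATGaaaa
Csnk1g2 (chr10:80634455-80634457, plus strand), low: aaacttATGgatt
The high mRNAs shown all have a purine at −3, while of the low ones Traf3 and Uhmk1 have an A and Atxn7l3 and Csnk1g2 a C. The 5′ UTRs of the low mRNAs held 2 (Traf3), 2 (Uhmk1), 3 (Atxn7l3) and 4 (Csnk1g2) upstream ATG triplets, against 1 in Wdr89, 0 in Lrrc58, 1 in Slc7a11 and 1 in Ndufc2. Other mRNAs at the ends of the range differed from these, since Spopl, a high one, had 3 upstream ATG triplets, Cenpb, a low one, had 0, and the low B4galt2, Smo and Cenpb had a G at −3. These sequences illustrate the ends of the range, and the same features are described over all genes further on.

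In total, 10127 genes were measured in both assays, after 270 of 10397 had fallen under a mean of 10 RNA counts. The footprint libraries of the control cultures held 18067298 to 52907878 counts and the RNA libraries 150222050 to 325494304. The line expressed the mesenchymal markers tested (5 of 5 listed, summed RNA level of 5528 to 6977 counts per 1000000, CPM, per culture), 5 of 8 epithelial or ductal markers (247 to 353 CPM), with Krt7, Cdh1 and Cldn4 not listed, and 6 of 7 fibroblast markers (352 to 564 CPM). Of the leukocyte markers only Cd68 was listed (1.31 to 1.86 CPM), and no endothelial, acinar or endocrine marker was. On an axis that runs from −1 at the mean of DMSO replicates 1 and 2 to 1 at that of torin 1 replicates 1 and 2, all 12 libraries lay on the DMSO side, at −1.07 to −0.65 in footprints and −1.22 to −0.99 in RNA. Replicates 1 and 2 define the axis, so that only the others test it.

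A ratio of 0 on the log2 scale means that a gene took the same share of the footprint and of the RNA library. The median gene lay at −0.42, and the medians of the 6 cultures lay between −0.45 and −0.36. The quartiles were −1.03 and 0.12, and the 5th and 95th percentiles were −2.05 and 1.08, an 8.72-fold range in ribosome load. Within a gene the cultures differed little, with a median SD of 0.22. Between any pair of cultures the ratios correlated over the 10127 genes with Pearson's r of 0.887 to 0.969 and Spearman's rho of 0.839 to 0.948. Genes share libraries and depth, so these values are a description only.

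mRNAs were called high or low when their footprint share differed from their RNA share by a log2 ratio of at least 1 in either direction with an adjusted p-value under 0.05 in edgeR's quasi-likelihood test. Of the 10127 genes, 577 (5.7%) were high and 2556 (25.2%) were low. All listed genes had reached 100 footprints in at least 1 library, so those with hardly any RNA entered mainly with high ratios. Of 237 genes tested with under 1 CPM of RNA, 229 were high and 0 low. More than 50% of coding 28-base words were in common with another gene in 246 of the high, 135 of the low and 1013 of all genes. The high mRNAs took 13.5 to 15.3% of all footprints per culture with 2.93 to 3.13% of the RNA, while the low mRNAs took 7.64 to 8.53% of the footprints with 24.9 to 25.5% of the RNA. The sign was the same in all 6 cultures for 528 of the 577 high and 2552 of the 2556 low genes. An adjusted p under 0.05 alone was reached by 7646 of the 10127 genes. These p-values refer to a ratio of 0. Genes named for extreme ratios were picked by the same ratio, so their p-values add no support. Because the threshold is set from 0 and the median gene lies below it, high calls made up 18.4% of all calls, against 43.7% when ratios were centred on the median gene, 42.2% with TMM scaling and 46.1% with DESeq2. Values are therefore also given relative to the median gene.

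**Figure D1:**
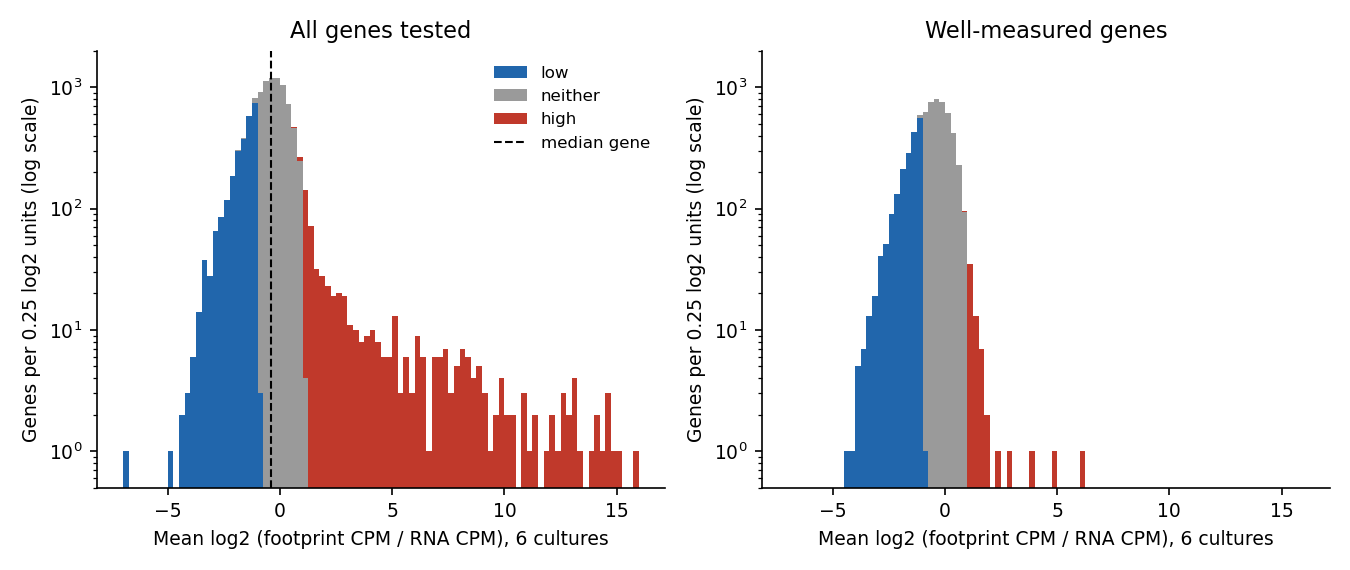
Number of genes (log scale) by their mean log2 ratio of footprint CPM to RNA CPM over 6 control cultures with DMSO, for all 10127 genes tested (left) and for 6254 well-measured genes (right). Bars are stacked, with low genes in blue, high genes in red and others in grey; the dashed line is the median gene at −0.42. Few well-measured genes lie above 4, where the minimum of 10 CPM of RNA takes genes out by construction.

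The highest ratios belonged to mRNAs that the RNA libraries hardly contained. Of the 164 genes with a mean ratio of at least 4, 23 encode replication-dependent histones, 5 are mitochondrially encoded, and of the remaining 136, 127 had either less than 1 CPM of RNA or more than 50% of their coding 28-base words in common with another gene. The share of words in common gives how much of the coding sequence of the transcript used recurs exactly in transcripts of another gene. It covers neither the UTRs nor how reads were in fact assigned. Among the 9 others, named after their values were seen, were Parp6, Mettl26, Sapcd2, Zbed5, Acta2, Wipi1, Wdr89 and Olfr77.

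Histones headed the list. Replication-dependent histone mRNAs end in a stem-loop and not in a poly(A) tail, and the RNA libraries were made from poly(A) RNA. The 63 histone genes listed took 3.27 to 5.66% of the footprints and 0.00106 to 0.00132% of the RNA. Only 23 of them reached 10 RNA counts, all 23 were high with ratios from 7.03 to 15.78, and 4 had at least 100 RNA counts. H4c9, a gene for histone H4, had 1269.6, 1292, 1011, 1082, 744 and 769.6 CPM of footprints in cultures 1 to 6 and 2.95 ± 0.45 CPM of RNA (SD, n = 6), a log2 ratio of 8.43 ± 0.31. H2bc4 (histone H2B) had a ratio of 7.42 ± 0.55 and H1f2 (linker histone H1.2) one of 7.32 ± 0.40 (SD, n = 6). What poly(A) selection contributes to these ratios was not tested.

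**Figure D2:**
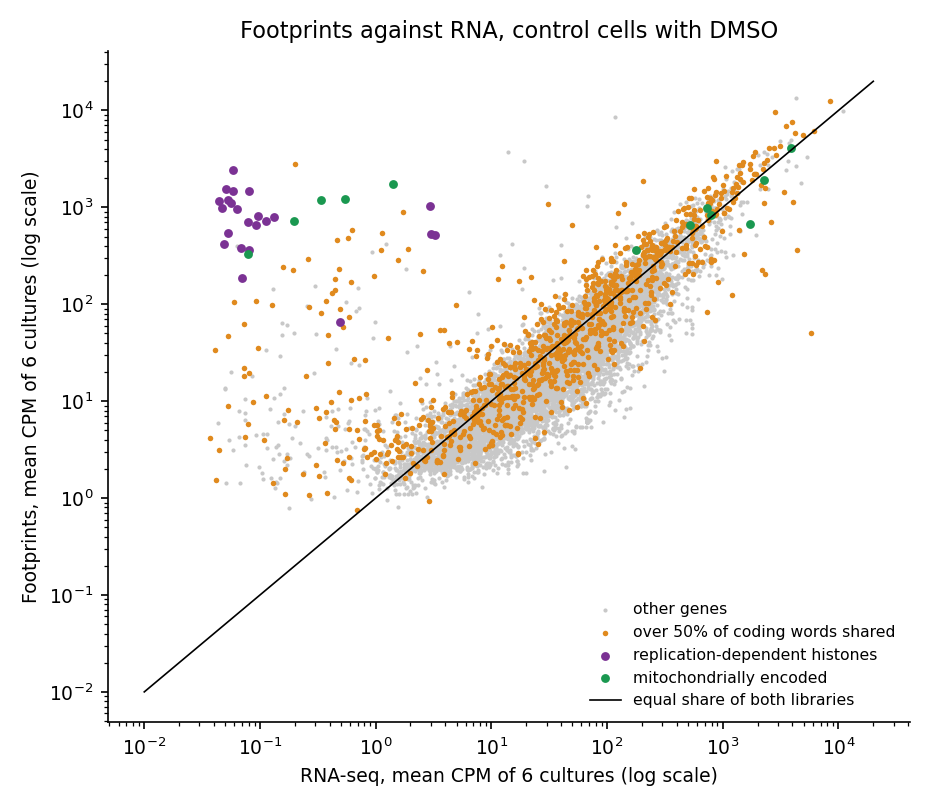
Mean footprint CPM against mean RNA CPM of 6 control cultures with DMSO (both log scales) for each gene tested; the line marks equal shares of both libraries. Histones (purple) and 5 of 12 mitochondrially encoded genes (green) lie far above the line at low RNA levels, as do many genes with over 50% of their coding words in common with other genes (orange), while Gapdh, at −6.88, is the orange point farthest below it.

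The mitochondrial genome encodes core proteins of the respiratory chain, and 12 of these genes were tested. mt-Co2, mt-Atp6, mt-Nd3, mt-Co3 and mt-Atp8 had ratios between 10.99 ± 1.92 (mt-Co2) and 13.10 ± 2.96 (mt-Atp8), with RNA levels of only 0.0785 (mt-Nd3) to 1.4 CPM (mt-Co2). Cultures 1 and 2 stood apart in RNA, since mt-Atp8 had 0 and 2 RNA counts there and 36 to 132 in cultures 3 to 6, and mt-Co2 30 and 18 against 344 to 668. The ratios of mt-Atp8 were 18.14 and 15.07 in cultures 1 and 2, where the added 0.5 counts weigh in, and 10.31 to 12.23 in the others. Without culture 1 the mean was 12.09 for mt-Atp8 and 11.85 for mt-Co3. With 1 CPM added to both levels, the means were 9.23 for mt-Atp8, 8.21 for mt-Nd3 and 9.80 for mt-Co3. Of these 5, mt-Atp8 had 9.04% and the others 98.1 to 100% of coding words in common with another gene. mt-Co1, subunit 1 of cytochrome c oxidase, had 4122 CPM of footprints and 3885 CPM of RNA, a ratio of 0.11 ± 0.48, and mt-Nd1, a subunit of complex I, was the only low one at −1.31 ± 0.70. mt-Nd6, another subunit of complex I, was also high at 1.03 ± 0.35 (SD, n = 6, edgeR adjusted p = 0.00019), with 176 CPM of RNA and 10.4% of words in common, and came to 0.45 above the median gene per kilobase. All are translated on mitochondrial ribosomes. The 5 genes stood apart in their RNA counts and not in footprints, of which mt-Co1 had more than any of them.

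The 15 highest nuclear protein-coding genes outside the histones were mostly genes with near-identical copies elsewhere in the genome. Among them were the ribosomal protein copies Rps18-ps5 (9.93 ± 0.68), Rpl10-ps3 (9.86 ± 0.71), Rps23rg1 (9.10 ± 0.53), Rpl9-ps6 (8.39 ± 0.41) and Rps27rt (7.82 ± 1.31), the tropomyosin copy Tpm3-rs7 (7.67 ± 0.28) and the predicted genes Gm2000 (9.99 ± 0.54), Gm2174 (9.73 ± 2.56), Gm4737 (8.97 ± 0.44), Gm11808 (8.94 ± 0.52), Gm10053 (8.91 ± 1.76), Gm9774 (8.34 ± 0.39) and Gm10131 (8.13 ± 0.31), each with under 2 CPM of RNA. Gm2174 had 2 and 6 RNA counts in cultures 1 and 2 against 132 to 342 in cultures 3 to 6, with a mean ratio of 8.95 without culture 1, and Gm10053 had 6 and 12 against 128 to 282. Rps27rt, with 96 and 48 against 478 to 726, had ratios of 8.98 and 9.94 against 6.93 to 7.16, and Olfr77 had 74 and 82 against 330 to 574. With 1 CPM added to both levels Gm2174 came to 7.04 and Gm10053 to 6.56. Counts of near-identical copies are uncertain, because the assignment of short footprints and longer paired RNA reads to a copy can differ. The remaining members were Olfr77, an olfactory receptor gene (8.59 ± 0.99), and Mettl26. Olfr77 had 420 CPM of footprints on 1.23 CPM of RNA and 2.08% of coding words in common. Its 3′ UTR of 7975 bases in the transcript used is not covered by that share. From which part of the gene its footprints came cannot be told from counts per gene. Mettl26 had no coding word in common with another gene, and its footprints were 6615, 5677, 1659.8, 1753, 3002 and 3746 CPM in cultures 1 to 6 against 12.5 to 15.5 CPM of RNA, a ratio of 7.89 ± 0.76. Its footprints were lowest in cultures 3 and 4, while the RNA of the 6 cultures lay close together.

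The lowest ratio of all was that of Gapdh, a glycolytic enzyme. It had 65.0, 34.6, 69.5, 44.9, 36.0 and 51.2 CPM of footprints in cultures 1 to 6 and 5781 ± 922 CPM of RNA (SD, n = 6), a ratio of −6.88 ± 0.34. Every coding word of Gapdh was found in another gene as well. A large share of words was also in common for the low ribosomal proteins Rps2 (−3.58 ± 0.35, 92.3% of words) and Rpl21 (−3.32 ± 0.48, 100%), for Hnrnpa3 (−3.52 ± 0.13, 97.8%), a splicing regulator, and for Ftl1 (−3.31 ± 0.38, 96.0%), the ferritin light chain. Among all genes with at least 100 counts in each assay, the 405 with over 90% of words in common were spread most widely, with 26.7% high and 14.1% low, against 2.02% and 26.1% of the 5903 genes without any such word.

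To describe mRNAs whose ratio does not rest on these values, genes were called well measured, after the data had been seen, when RNA reached 10 CPM and footprints a mean of 100 counts, at most 10% of coding words were in common with another gene and the SD over cultures was at most 0.5. This left 6254 genes, with 64 high (1.02%) and 1849 low (29.6%). The minimum on RNA, the denominator of the ratio, is stricter than that on footprints, so by construction it takes out more high than low ratios. Among the genes with at least 100 counts in each assay, the 1811 with the least RNA (0.41 to 13.9 CPM) had 11.2% high and 10.3% low, while 4 groups of like size with more RNA had 1.82 to 2.71% high and 27.1 to 31.7% low. Their median ratio was −0.54 and their 5th and 95th percentiles were −2.07 and 0.56, a 6.21-fold range. The limit on the SD was set on the same cultures, so their small spread (median 0.20) is no finding.

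Wdr89 and Lrrc58 stood near the top of the well-measured mRNAs. Wdr89, which encodes a WD repeat protein, had ratios of 5.36, 5.20, 4.79, 4.45, 4.60 and 4.31, and Lrrc58, a leucine-rich repeat protein, had 3.81, 3.78, 3.95, 3.91, 4.03 and 4.19. Tlcd1, a membrane protein linked to the lipid composition of membranes, followed with 2.99 ± 0.29. In these 3 genes the lowest culture stood above the 95th percentile of all genes.

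Slc7a11 encodes the cystine-glutamate antiporter xCT, which supplies cysteine for glutathione. Its footprints were 172, 166, 180.2, 169.5, 188 and 205 CPM in cultures 1 to 6 and its RNA was 44.0, 36.3, 35.5, 26.9, 29.9 and 33.9 CPM. The ratio was 2.40 ± 0.28 (SD, n = 6, adjusted p = 1.3e-11 against a ratio of 0). It lay 2.82 above the median gene. The ratio was highest in cultures 4 to 6, at 2.65, 2.65 and 2.59, and lowest in culture 1 at 1.97. Per kilobase of coding sequence and transcript Slc7a11 was at 4.43 above the median gene, with a 3′ UTR of 7364 bases in the transcript used.

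Several well-measured high mRNAs encode parts of the respiratory chain. Ndufc2, Ndufa3 and Ndufa6, all subunits of complex I, had ratios of 1.86 ± 0.17, 1.59 ± 0.25 and 1.55 ± 0.20, and Atp5mpl, a small protein of the ATP synthase, had 1.60 ± 0.14. Surface and secreted proteins were represented by Ncam1, an adhesion molecule (1.71 ± 0.17), Cd47, the ligand of SIRPα that restrains phagocytosis (1.53 ± 0.23), and Col1a1, a chain of collagen I (1.34 ± 0.16). Others were Ahnak, a giant scaffold protein (1.97 ± 0.21), Spopl, an adaptor of cullin-3 ubiquitin ligases (1.74 ± 0.26), Ydjc (1.63 ± 0.20), Tm9sf2 (1.47 ± 0.33), Shc4, a signalling adaptor (1.46 ± 0.20), Ubl5, a ubiquitin-like splicing factor (1.44 ± 0.26), Med7 of the Mediator complex (1.35 ± 0.30) and Cse1l, the exporter of importin alpha (1.35 ± 0.28).

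Traf3 and Uhmk1 had the lowest ratios by CPM of the well-measured mRNAs. Traf3, an adaptor and ubiquitin ligase of tumour necrosis factor receptors, had ratios of −4.17, −4.09, −4.88, −3.87, −4.17 and −4.35 in cultures 1 to 6, with 8.41 ± 1.68 CPM of footprints against 158 ± 6 CPM of RNA (SD, n = 6, adjusted p = 6.8e-14). Uhmk1, a kinase that acts on splicing and cell cycle proteins, had −4.15, −4.29, −4.13, −4.37, −3.75 and −4.13. No culture of either gene came above −3.7, so both lay below the 1st percentile of all genes (−2.96) in each. Per kilobase Traf3 was at −2.78 and Uhmk1 at −2.07 relative to the median gene, above Csnk1g2 at −3.93, Smo at −3.67 and B4galt2 at −3.50. The footprint counts behind such values are small, with a mean of 243.5 per library for Traf3 and 249.5 for Uhmk1.

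Among the glycosyltransferases, B4galt2, a galactosyltransferase, had −3.98 ± 0.37 and St6galnac6, a sialyltransferase, −3.91 ± 0.48. Signalling was represented by Csnk1g2, a casein kinase 1 (−3.90 ± 0.32), Smo, the transducer of Hedgehog signals (−3.76 ± 0.11), Ryk, a receptor for Wnt ligands (−3.51 ± 0.14), Dgkz, a diacylglycerol kinase (−3.51 ± 0.21), Cdk16, a cyclin-dependent kinase (−3.47 ± 0.24), and Gna12, a G protein alpha subunit (−3.44 ± 0.44). In the nucleus act Atxn7l3, part of the SAGA deubiquitinase module (−3.97 ± 0.44), Cenpb, which binds centromeric DNA (−3.65 ± 0.28), and Mllt6 (−3.53 ± 0.31). Smo was the steadiest of these, with all 6 cultures between −3.92 and −3.61. B4galt2 overlaps exons of other genes over 28.2% of its exonic bases. For Yipf2 (−4.48 ± 0.66), the lowest gene after Gapdh with at least 100 counts in each assay, the share was 52.1%.

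Kif1c, a kinesin that carries cargo along microtubules, had the most footprints of the 20 lowest well-measured genes. Its footprints were 48.1, 55.1, 50.5, 48.4, 46.0 and 46.8 CPM in cultures 1 to 6 and its RNA was 554, 545.5, 532, 515, 547 and 545 CPM. The ratio was −3.46 ± 0.10 (SD, n = 6, adjusted p = 8.2e-16). All 6 cultures lay between −3.57 and −3.31. The remaining low members by rule were Ankrd13b (−3.53 ± 0.30), LTO1 (−3.53 ± 0.50, −1.96 relative to the median gene per kilobase), Wsb2 (−3.64 ± 0.30) and Metrn (−3.56 ± 1.5), and among well-measured genes Pacs2 (−3.51 ± 0.32), Fam20b (−3.46 ± 0.34), 2610507B11Rik (−3.43 ± 0.22) and Dennd5a (−3.40 ± 0.18).

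**Figure D3:**
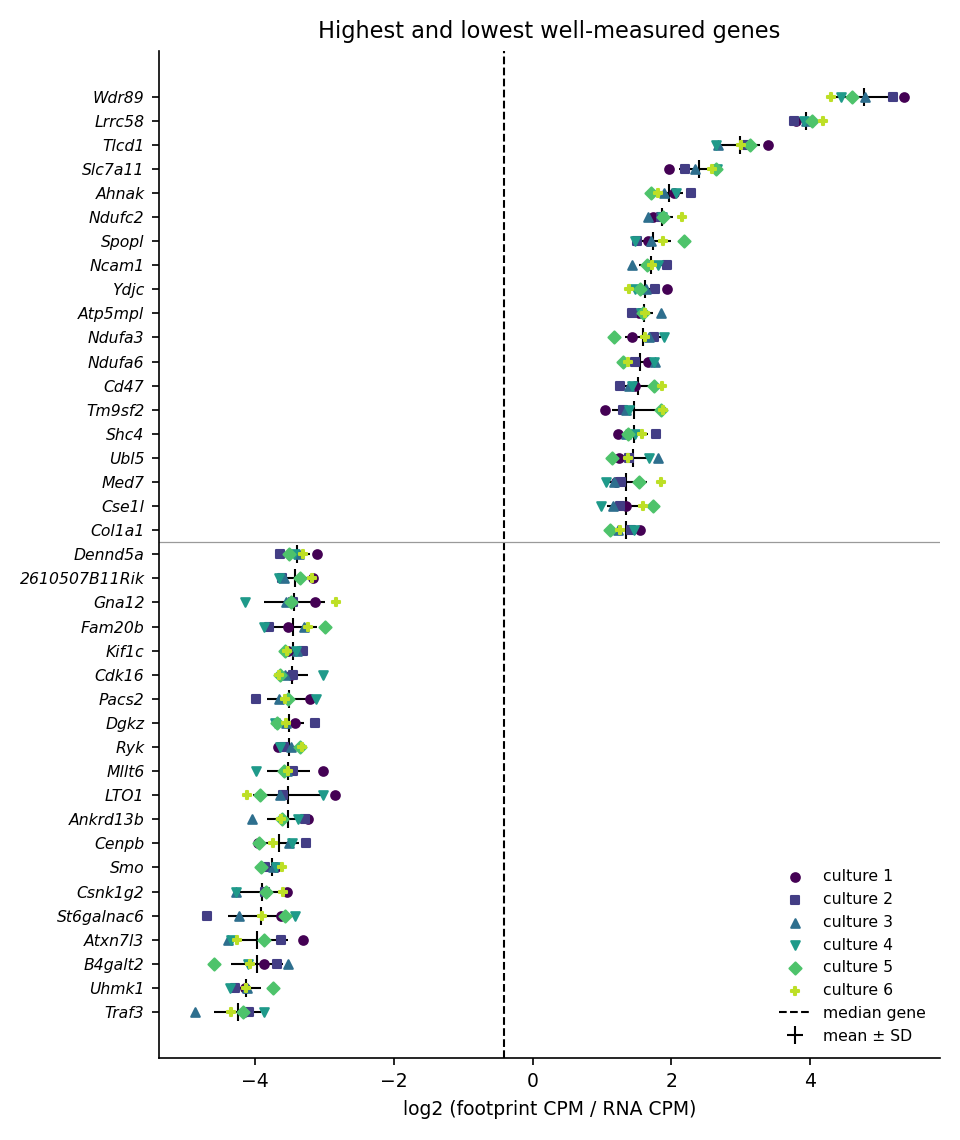
Log2 ratio of footprint CPM to RNA CPM in each of 6 control cultures with DMSO for 19 of the 20 highest and the 20 lowest well-measured genes, with the mean ± SD (black) and the median gene of −0.42 (dashed). Symbols stand for cultures 1 to 6. Means run from 4.79 in Wdr89 to −4.25 in Traf3.

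The protocadherin gamma genes, which encode adhesion proteins of neurons, formed a low block. All 22 listed entries were low, between −3.48 and −1.47, with mean RNA counts of 15834 to 54808 and mean footprint counts of 175 to 2408. They share their 3′ exons, so that one mRNA can be counted for several entries. Named genes not annotated as protein-coding, beside Pcdhgb8 of this block, were Tmem134 (−2.44 ± 0.40), Ptpmt1 (−1.06 ± 0.28), 1810058I24Rik (−0.92 ± 0.29) and Zswim6 (0.37 ± 0.07). Of RNAs listed as non-coding only Snhg4, a host of small nucleolar RNAs, was measured (0.79 ± 0.25); Miip, which encodes a protein and stood on that list by mistake, was low at −1.05 ± 0.16.

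Functional groups were compared through 37 lists of genes, written with earlier results of these data known and described by their counts and medians. Of the lists, 32 had a median above that of the median gene. Read against 5.7% high and 25.2% low over all genes, the lists of energy metabolism, protein folding and the cytoskeleton held few low members. Lists are not independent of each other, because some genes stand on several.

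The medians of the ribosomal protein lists lay above the median gene, but 0 of the 49 large and 1 of the 33 small subunit genes were well measured. Of 49 large subunit proteins 5 were high and 8 low, with a median of 0.71 relative to the median gene, and of 33 small subunit proteins 5 were high and 3 low, with a median of 0.75. The named extremes were Rpl22l1 (1.59 ± 0.34), a paralog of Rpl22, and Rpl21 (−3.32 ± 0.48), and for the small subunit Rps27l (1.44 ± 0.33) and Rps2 (−3.58 ± 0.35). The 8 and 3 low members and the 5 and 5 high ones had more than 50% of their coding words in common with other genes, among them the many processed copies of these genes. The 22 other TOP mRNAs tested had a median of 0.69 with 1 high and 0 low member, Cct4 (1.08 ± 0.10), a subunit of the CCT chaperonin.

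Translation factors were described in separate lists by step. Of 14 subunits of eIF3, which joins the small subunit to the mRNA, all were above the median gene, with a median of 0.73, and Eif3b was lowest at −0.25 ± 0.14. The only high member, Eif3j2 (7.09 ± 0.66), has a near-identical paralog and 0.587 CPM of RNA. Of 10 elongation and termination factors none passed in either direction, from Eef1b2, the exchange factor of eEF1A (0.97 ± 0.06), to Etf1, the release factor (−0.85 ± 0.28). Of the cap-binding factors of eIF4F and their regulators 4 of 10 were low, with a median of −0.38 relative to the median gene by CPM and 0.0055 per kilobase, where that of eIF3 was −0.072. These were Eif4ebp2, a translational repressor regulated by mTORC1 (−2.82 ± 0.20), Eif4g2 (−1.31 ± 0.12), Eif4g3 (−1.30 ± 0.16) and Eif4h (−1.08 ± 0.08). Eif4ebp2 turned to 0.59 above the median gene per kilobase. The 19 cytosolic aminoacyl-tRNA synthetases all lay above the median gene by CPM, with a median of 0.42 that turned to −0.039 per kilobase, from Kars at −0.32 ± 0.07 to Qars at 0.77 ± 0.11, and none passed in either direction. Of 40 nucleolar genes of ribosome biogenesis 0 were high and 4 low, and the median was 0.03 above the median gene.

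The respiratory chain, which makes ATP from nutrients and oxygen, was translated well above the median gene. Of 75 nuclear-encoded subunits of the respiratory chain 15 (20%) were high, none was low, 71 lay above the median gene, and the median was 0.99 above it. Of the 37 well-measured ones 4 were high and 0 low, with a median 0.89 above the median well-measured gene. Cox5b and Cox7c, subunits of cytochrome c oxidase, had 1.80 ± 0.17 and 1.64 ± 0.05, and Sdhd, the membrane anchor of succinate dehydrogenase, was lowest at −0.57 ± 0.08. The 80 mitochondrial ribosomal proteins were closer to the median gene, with 5 high, 2 low and a median of 0.48. Of 17 glycolytic genes 1 was high (Pgam1, 1.01 ± 0.11, 100% of words in common), 1 was Gapdh, and the median was 0.43. In cholesterol synthesis, Idi1, isopentenyl diphosphate isomerase, was high (2.70 ± 0.58, 79.6% of words in common), while 3 of 22 genes were low, among them Insig1, a feedback regulator (−1.16 ± 0.13), and Mvk, mevalonate kinase (−1.13 ± 0.21).

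Protein quality control was translated above the median gene. The 8 subunits of the CCT chaperonin, which folds actin and tubulin, lay between Cct5 at 0.09 ± 0.09 and Cct4 at 1.08 ± 0.10, with a median of 0.94 relative to the median gene. The 32 proteasome subunits had a median of 0.77 with 2 high and 0 low, led by Psmc6, an ATPase of the base (1.19 ± 0.05), with Psmd7 lowest (−0.65 ± 0.11). Of 18 heat shock proteins 2 were high, Hspa1a (5.04 ± 0.31, RNA 0.815 CPM) and Hspa1b (2.02 ± 0.26), which are near-identical, and none was low. None of 16 ER chaperones passed, with Hsp90b1 highest (0.95 ± 0.09) and Creld2 lowest (−0.95 ± 0.21).

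Cytoskeletal genes were described in lists of tubulins and actin genes. Of 11 tubulins 5 were high and none low, with a median of 1.11 above the median gene. The 5, Tubb2a (3.0 ± 0.44), Tuba1c (2.95 ± 0.17), Tuba1a (2.82 ± 0.21), Tubb2b (2.58 ± 0.42) and Tuba1b (1.32 ± 0.26), all had over 50% of words in common with other genes, and none of the 3 well-measured tubulins was high. Tubg1, which nucleates microtubules, was lowest (−0.84 ± 0.16). Among 27 actin genes, with a median of 0.72 above the median gene, 5 were high and 2 low, while of the 15 well-measured ones none was high and 1 was low. The high ones included the cytoplasmic actins Actb (1.64 ± 0.08) and Actg1 (1.75 ± 0.08) and the smooth muscle genes Acta2 (4.39 ± 0.38) and Myl9 (6.21 ± 1.12). Acta2 rested on 133 CPM of footprints and 6.4 CPM of RNA, and Myl9 on 8.26 and 0.12 CPM. Tpm4, a tropomyosin, was low (−1.56 ± 0.17). The annexins and S100 proteins (15 genes, median 0.85, led by S100a10 at 1.07 ± 0.18) and the matrix genes (25 genes, median 0.58 by CPM and −0.053 per kilobase, with Col1a1 and Col3a1 high) held no low member, although Tnc, tenascin C, reached −0.87 ± 0.19.

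**Figure D4:**
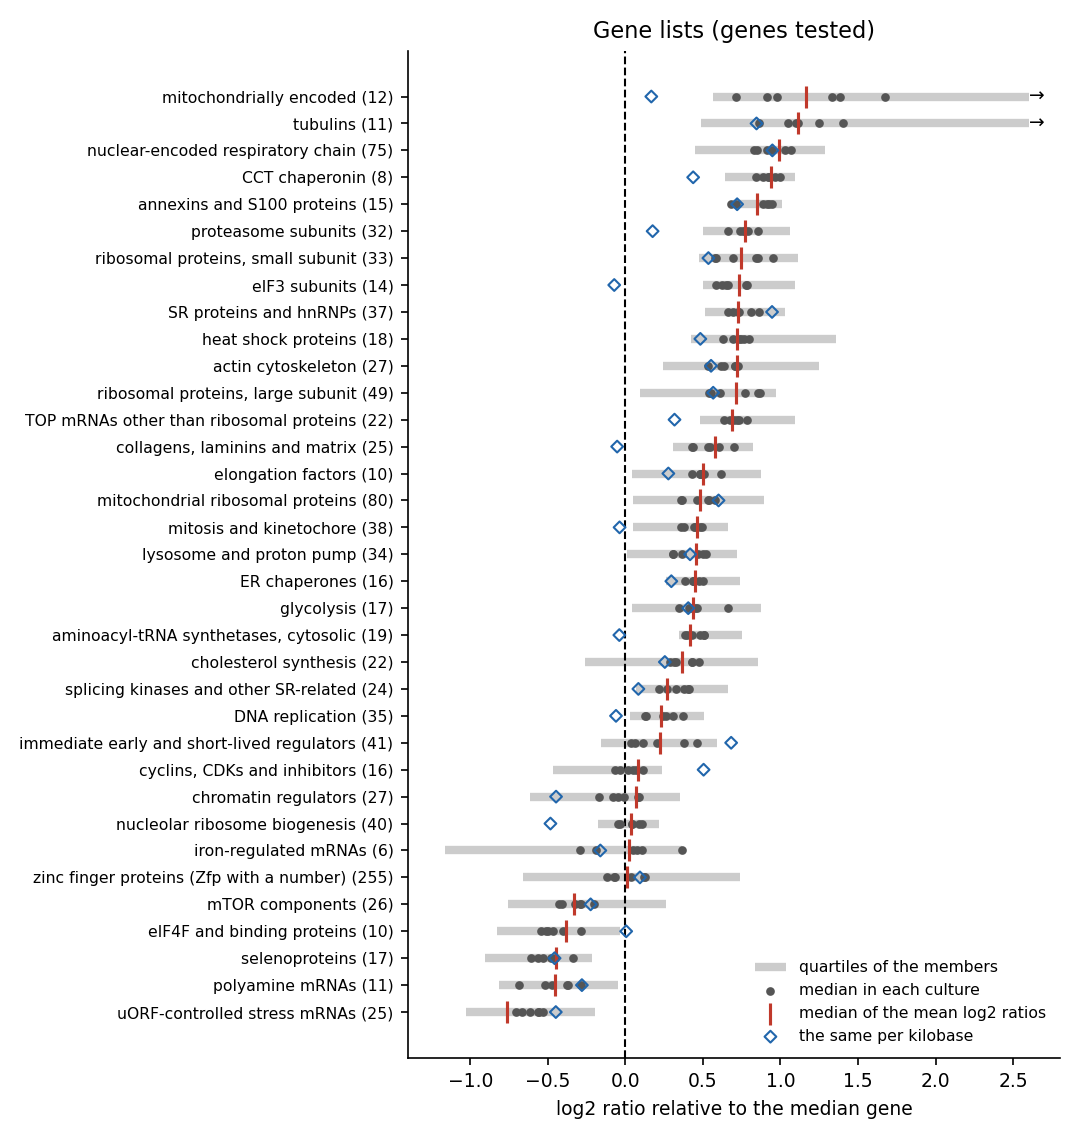
Median log2 ratio of gene lists relative to the median gene (0) in control cells with DMSO, with the number of genes tested in brackets. Red bars give the median of the mean ratios, grey dots the median in each of 6 cultures, grey bands the quartiles of the members (arrows where they run past the axis) and blue diamonds the medians per kilobase; lists with under 5 genes tested and the histones, at 13.52, are left out. Respiratory chain genes lie near 0.99 and the list of uORF-controlled stress mRNAs near −0.76.

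At the lower end stood a list written for mRNAs whose translation is held back until a signal comes. This list of uORF-controlled stress mRNAs had a median of −0.76 relative to the median gene, and 14 of 25 (56.0%) were low. Some members, such as Atf4, carry short upstream open reading frames and are translated when eIF2 is phosphorylated. That does not describe all 25, since Odc1, Amd1 and Azin1 also stand on the polyamine list. By CPM over all members this was the lowest median of the 37 lists, but it was −0.45 per kilobase and −0.22 with well-measured members alone, and other lists were then lower. Atf4, the transcription factor of the integrated stress response, had −1.37, −1.12, −1.51, −1.35, −1.36 and −1.31 in cultures 1 to 6, with 92.7 CPM of footprints against 234 CPM of RNA. Ppp1r15a, which helps to remove the phosphate from eIF2, was the lowest of the list (−2.25 ± 0.74), with a lone value of −0.85 in culture 4, and its constitutive paralog Ppp1r15b had −1.45 ± 0.08. Ddit3, also called CHOP, had −1.36 ± 0.67 and Mdm2, the ubiquitin ligase of p53, −1.28 ± 0.20. The one high member was Cebpb, a transcription factor with several start codons (1.73 ± 0.27), with 0 upstream ATG triplets in the transcript used. Zfp385a (−2.08), Eif2ak4 (−1.32) and Chac1 (−1.15), all low, and Trib3 (−0.69) had 0 as well.

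The upstream start codons of 4 of these mRNAs are given, since known upstream frames are the basis of the list. The first upstream ATG is in capitals, with 6 bases before it and 4 after it, in GRCm38.
Atf4 (chr15:80255303-80255305, plus strand, 475 bases before the start codon): tctctcATGgggc
Ddit3 (chr10:127290829-127290831, plus strand, 131 bases before): tatatcATGttga
Ppp1r15a (chr7:45526087-45526089, minus strand, 707 bases before): ggcgacATGaacc
Ppp1r15b (chr1:133131245-133131247, plus strand, 502 bases before): cggcgaATGacgt
The 5′ UTRs of these mRNAs held 3 (Atf4), 2 (Ddit3), 7 (Ppp1r15a) and 3 (Ppp1r15b) ATG triplets in the transcripts used. Distances are in bases of the spliced transcript.

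The polyamine genes, several of which sense polyamines through upstream frames or frameshifting, had 5 low members of 11 and a median of −0.45 relative to the median gene. Odc1, ornithine decarboxylase, had −1.18 ± 0.24, and Oaz1, its antizyme, −1.06 ± 0.27. Amd1, which makes the aminopropyl donor, was low at −1.45 ± 0.46 and its copy Amd2 high at 3.18 ± 0.50, with 100% and 97.1% of words in common with other genes, so that neither value can be read alone. Of 17 selenoproteins, which recode a stop codon and need selenium, 6 were low and none high, with a median of −0.45, from Selenon (−2.20 ± 0.11) to Selenoi (0.38 ± 0.30). Gpx1, a glutathione peroxidase, had −1.32 ± 0.08. Of 6 iron-regulated mRNAs tested 2 were low and none high, 3 lay above the median gene, and the median was 0.025 above it. The low ones were the ferritin mRNAs Ftl1 (96.0% of words in common) and Fth1 (26.1%), which iron regulatory proteins repress when iron is scarce, with −3.31 ± 0.38 and −1.92 ± 0.29, while Tfrc, the transferrin receptor, had 0.79 ± 0.36.

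Of 26 components of mTOR signalling 10 (38.5%) were low, none was high and 9 lay above the median gene, with a median of −0.33. The GATOR1 subunit Depdc5 had −1.74 ± 0.17, and the tuberous sclerosis genes Tsc1 and Tsc2, which restrain mTORC1, had −1.43 ± 0.21 and −1.13 ± 0.19. Mtor itself had 0.19 ± 0.08 and the Rag GTPase Rraga 0.38 ± 0.12. Of 41 immediate early and short-lived regulators 6 (14.6%) were low, a smaller share than the 25.2% over all genes, and 1 was high. Myc, one of the most abundant of these mRNAs with 4734 CPM of RNA, was low at −1.4 ± 0.12, and Mafk had −1.46 ± 0.24. Jun had 0.28 ± 0.13. Of 27 chromatin regulators 7 (25.9%) were low, near the share over all genes, and their median was 0.07 above the median gene. Kmt2a, a histone methyltransferase, was lowest (−2.80 ± 0.35) and Crebbp, a histone acetyltransferase, was high (1.32 ± 0.16). Among 255 zinc finger genes 29 (11.4%) were high and 73 (28.6%) low, against 5.7% and 25.2% over all genes. The named extremes were Zfp236 (−2.78 ± 0.22) and Zfp433 (2.92 ± 0.26). Of the 102 well-measured ones 1 was high and 52 were low, where 1.02% of all well-measured genes were high and 29.6% low.

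Few genes of cell division and splicing passed in either direction. Of 35 DNA replication genes 2 were low, Gins2 (−1.71 ± 0.33) and Rfc1 (−1.39 ± 0.17), and none was high, with Rpa3 highest (0.99 ± 0.10). Of 38 mitotic genes Knl1, a kinetochore scaffold, was high (1.03 ± 0.37), and Mki67, the proliferation marker Ki-67, and Incenp were low (−2.08 ± 0.37 and −1.03 ± 0.30). Of 16 cyclin and kinase genes 2 were low, with Ccng1 lowest (−1.88 ± 0.23). Of 37 SR proteins and hnRNPs 2 were high and 2 low, with a median of 0.73. Hnrnpf (1.78 ± 0.14) and Hnrnpa3 (−3.52 ± 0.13) were the extremes, while Hnrnpd, with 2.88% of words in common, was high at 1.1 ± 0.11. None of 24 other splicing genes passed in either direction, between Prpf4b (−0.96 ± 0.10) and Ddx5 (0.55 ± 0.07). Of 34 lysosomal and proton pump genes 2 were high, Atp6v0c (1.34 ± 0.21, 93.4% of words in common) and Lamp2 (1.01 ± 0.38), and Tfe3, a regulator of lysosomal genes, was low (−1.16 ± 0.23).

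Levels can be compared between genes only per length, since a longer coding sequence holds more ribosomes and a longer transcript gives more RNA reads. With footprints per kilobase of coding sequence and RNA per kilobase of transcript, 23 of the 32 lists kept a median above the median gene, and eIF4F came to 0.0055 above it. The side changed for 10 lists, namely eIF3, eIF4F, aminoacyl-tRNA synthetases, nucleolar biogenesis, matrix, iron, DNA replication, mitosis, chromatin and non-coding RNAs. With well-measured members alone it changed for 2 of the lists with at least 3 such members, chromatin and zinc fingers, and for the non-coding list, where 1 such gene was left.

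Features of the annotated sequence were then compared over the 6254 well-measured genes. Lengths among them bear on the ratio through the reads they give. The 2896 genes without an upstream ATG had a median of 0.19 relative to the median well-measured gene, those with 1 had −0.03, with 2 or 3 −0.27, and with 4 or more −0.34. Spearman's rho between the number of upstream ATG triplets and the ratio was −0.24 over 6182 genes. Among the 9051 genes with at least 100 counts in each assay the share of low genes was 16.6% without an upstream ATG and 37.6% with 4 or more. Longer 5′ UTRs hold more ATG triplets by length alone. In each of 5 equal bins of 5′ UTR length, over these 9051 genes, those with an upstream ATG had the lower median, from −0.0057 against 0.15 in the shortest bin to −0.29 against 0.17 in the longest.

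The bases around the start codon went with smaller differences. The median was 0.05 for the 2915 well-measured genes with a purine at −3 and a G at +4, and −0.28 for those with neither. Per kilobase these medians were closer together, at 0.03 and −0.12. Genes with GC-rich 5′ UTRs had lower ratios, and the difference lay mainly in the highest of 5 equal bins of GC, which had a median of −0.42 against 0.00075 to 0.15 in the other bins. Spearman's rho with the GC of the coding sequence was −0.28. In the 209 genes with at least 100 counts whose transcript began with a C and 4 pyrimidines, the TOP-like start, the median was 0.21 relative to the median gene of that set. Annotated starts can differ from those used in these cells.

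The relation to length depended on how the ratio was formed. By CPM, the bin of well-measured genes with the shortest 3′ UTRs had a median of 0.31 and those with the longest −0.24, with rho of −0.21. Per kilobase the order turned, with rho of 0.31. The ratio fell with coding length by either measure, with rho of −0.18 by CPM and −0.53 per kilobase. By construction the ratio per kilobase rises with transcript length and falls with coding length. The upstream ATG and 5′ UTR GC differences kept their sign per kilobase, with rho of −0.16 in both. These values are across genes, which share libraries and base composition, and carry no p-value.

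**Figure D5:**
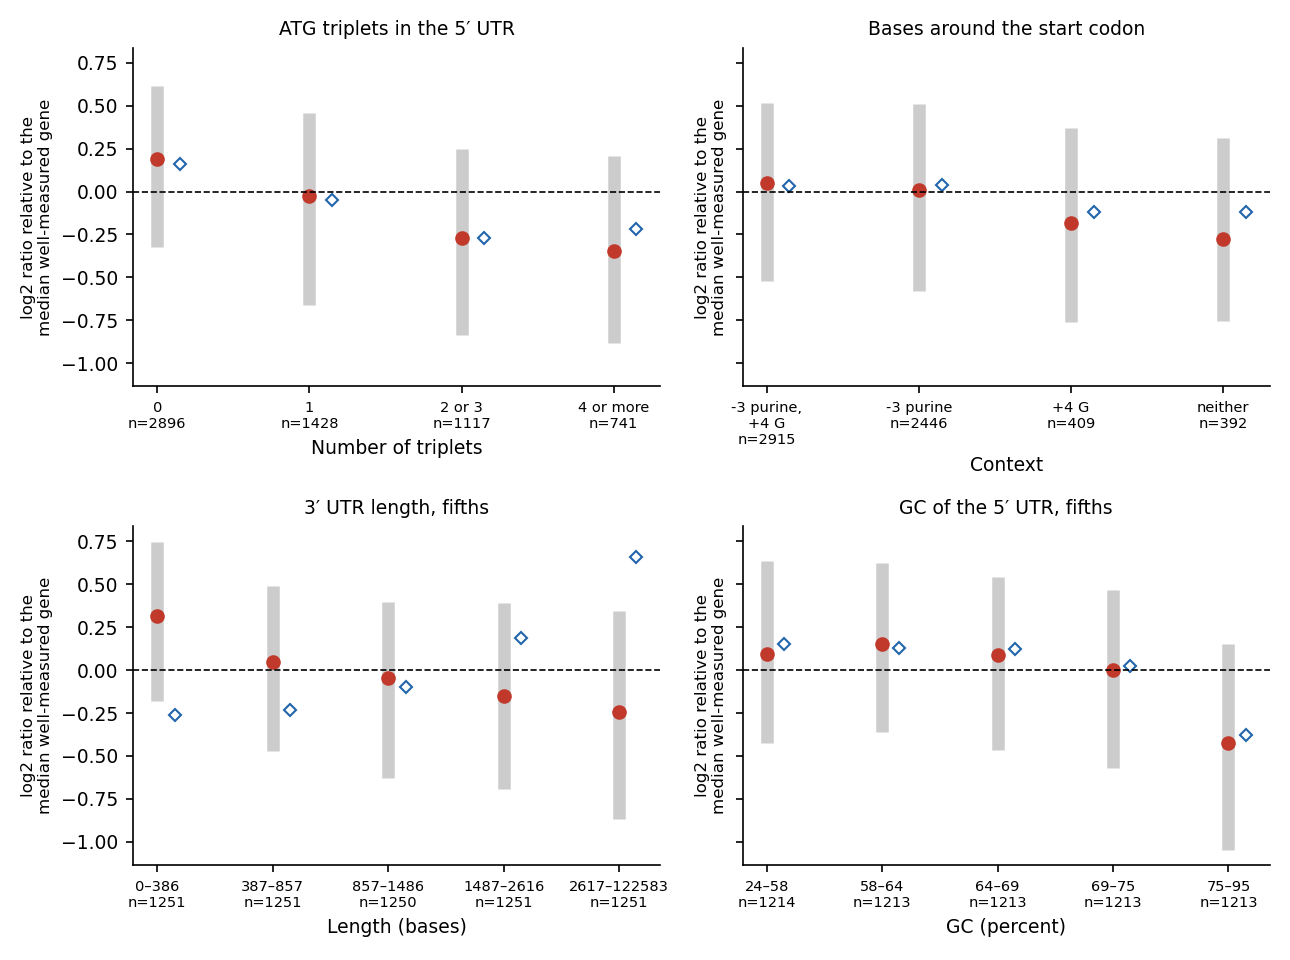
Median log2 ratio (red) relative to the median well-measured gene, with quartiles of the genes (grey bands) and the medians per kilobase (blue diamonds), by the number of ATG triplets in the 5′ UTR, the bases around the start codon, and 5 equal bins of 3′ UTR length (bases) and of 5′ UTR GC (percent). n gives the genes. The median falls from 0.19 without an upstream ATG to −0.34 with 4 or more, and the order by 3′ UTR length turns per kilobase.

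The called groups were described by the same features. The 64 well-measured high mRNAs had a median coding length of 1194 bases and a 3′ UTR of 668.5 bases, and 53.1% had no upstream ATG. The 1849 low ones had 1827 bases of coding sequence, a 3′ UTR of 1491 bases and no upstream ATG in 31.5%. The well-measured mRNAs called neither high nor low had 1503 bases of coding sequence, a 3′ UTR of 986 bases and no upstream ATG in 53.2%, close to the share in the high mRNAs. A purine at −3 was found in 93.7% of the high, 82.9% of the low and 88.6% of the other mRNAs, while a G at +4 was found in 46.0% of the high, 51.9% of the low and 54.9% of the other well-measured mRNAs. Median RNA levels were 43.3 CPM in the high and 51.9 CPM in the low mRNAs, and median footprint levels 118 and 16.6 CPM, of which the ratio itself was made.

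A small set of genes varied between control cultures. Of 9143 genes with at least 100 counts in each assay, 66 (0.722%) had an SD above 1, of which 47 were high, and in 58 of the 66 the footprints varied more than the RNA. Parp6, a mono-ADP-ribosyltransferase, had 126, 1135, 4981, 6362, 2555 and 2945 CPM of footprints in cultures 1 to 6 while its RNA was 19.1 ± 1.93 CPM (SD, n = 6), for a ratio of 6.56 ± 2.17. Culture 1 also had the lowest ratio in Wipi1, an autophagy protein (1.21 against 4.72 to 7.16), Sapcd2 (0.97 against 3.56 to 6.06), Kmt5c, a histone H4 methyltransferase (0.03 against 3.01 to 4.79), and Parp12 (0.28 against 1.55 to 4.01). Without culture 1 the mean was 7.35 for Parp6, 5.91 for Wipi1, 4.74 for Sapcd2 and 3.78 for Kmt5c. Culture 1 was the lowest of the 6 in 32 of the 66 genes. These 5 genes were named for their SD, so their spread is a description, and whether culture or library preparation set it was not tested.

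The pattern was then compared with the cultures it did not use. The ratio was at least 1 in the same direction in Ctu1 iKO cultures with DMSO for 504 of 577 high and 2068 of 2556 low mRNAs, and in control cultures with torin 1 for 489 of 537 high and 1821 of 2387 low ones. Both comparisons share the control cultures with DMSO. Translational efficiency differed between Ctu1 iKO and control in 1 gene upwards (0.00987%) and 4 downwards (0.0395%) of 10128 in an edgeR interaction test, with 714 at an unadjusted p under 0.05 and 9 and 20 by DESeq2. Acta2 was the only one of them among the 151 genes taken by the naming rule. It fell by 1.68 ± 0.27 (SE) on the log2 scale (adjusted p = 0.0066), from 4.39 ± 0.38 to 2.8 ± 0.47. With replicates 1 to 3 alone the value was −1.85 with an adjusted p of 0.74, and 0 genes passed in either direction in edgeR, with 380 at an unadjusted p under 0.05. On the treatment axis, the RNA libraries labelled Ctu1 iKO with DMSO, replicates 4 and 5, lay at 0.93 and 0.77, on the torin 1 side, while replicates 1 to 3 lay at −0.79 to −0.52.

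With torin 1, 8 of 9630 genes rose (0.0831%) and 158 fell (1.64%) in translational efficiency. With the replicate number as a block, common to the DMSO and torin 1 libraries of that number in both assays, 49 rose and 218 fell. In both counts the tool was edgeR with TMM. With library totals 46 rose and 131 fell, and with DESeq2 30 rose and 188 fell. Of 531 high mRNAs tested 0 rose and 23 (4.33%) fell, and of 2387 low mRNAs 6 rose and 14 (0.587%) fell. With the block 1 of the high mRNAs rose and 30 fell, and 39 of the low mRNAs rose and 20 fell, so that the balance among low mRNAs turned. Pcdhgb8 then passed upwards (adjusted p = 0.020), and Rpl10-ps3, Kars, Tubb2a and Atp5mpl passed downwards. Among the genes taken by the naming rule, 15 fell, of which 7 are ribosomal protein genes or copies of them and 3 encode translation factors or their regulator. Eef1b2 fell by 1.75 ± 0.10 (SE, adjusted p = 6.3e-12), from 0.97 ± 0.06 with DMSO to −0.67 ± 0.17 with torin 1. Rpl22l1 fell by 1.57 ± 0.15 (adjusted p = 2.3e-08), and Rps2, already low, fell by 1.12 ± 0.16 (adjusted p = 4.2e-05). Slc7a11 and Lrrc58 differed by −0.08 ± 0.17 and 0.02 ± 0.12 (SE), with adjusted p of 0.98 and 0.996 in edgeR. On the treatment axis the RNA libraries labelled control with torin 1, replicates 5 and 6, lay on the DMSO side at −0.72 and −0.67, the footprint libraries of replicates 3 to 6 lay near the middle at −0.01 to 0.07, and with replicates 1 to 4 alone 5 genes rose and 142 fell.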

How the data were processed

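Ribosome footprints (RNase I, monosomes) and poly(A) RNA were sequenced from the same cultures. The deposited values are raw counts per gene made by the authors, with no normalization. Per the methods and processing notes, footprint reads were trimmed (cutadapt 3.4), molecular identifiers extracted (UMI-tools 1.1.1), rRNA reads removed, and the rest aligned and counted with STAR 2.5.3a. Whether identifiers were collapsed is not given in the sources used here. The notes name mm10 and GRCm38 and the methods a human genome; symbols are those of mouse. RNA counts came from a facility workflow and are even numbers. The methods place the RNA aliquot after the RNase step, so its order is unclear. Listed entries reached 100 footprints in at least 1 library, so genes with few footprints were not analysed here.

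Translational efficiency was log2 footprint CPM minus log2 RNA CPM (0.5 added to counts, per 1000000 counts) for same-numbered libraries, which the series' design text says came from the same sample. Deviations of same-numbered libraries correlated at 0.16 to 0.27, while footprints of culture 5 correlated more with RNA of culture 6 (0.21) than with their own (0.16). Footprints were compared with RNA in edgeR 4.0.16 (R 4.3.3, quasi-likelihood test, library totals, Benjamini-Hochberg adjustment) on genes averaging 10 counts or more in both assays. High or low calls needed an adjusted p under 0.05 and a fitted log2 ratio of at least 1 in size. Differences between groups were interactions of assay and group, with TMM within each assay. The test calls were checked on simulated data. Features came from 1 GENCODE M21 transcript per gene (10299 of 10397 symbols matched with a coding sequence), and words in common were 28-base words of the coding sequence. Members, lists and tests were chosen with earlier results of these data known. Named genes, other than the mitochondrial genes, which were all taken, had at least 100 counts in each assay, an adjusted p under 0.05 and the same sign in all 6 cultures. They were the 15 highest and lowest nuclear protein-coding genes outside histones, 3 histones, 5 genes not annotated as coding, the mitochondrial genes, the highest and lowest member of each list, and the 5 largest SDs at 1000 counts or more. The 20 highest and lowest well-measured genes were added after the values were seen. Other members of a list are named as examples. Alternatives were a pseudocount of 1 CPM, TMM, centring on the median gene, DESeq2 1.42.0, count minimums of 1 and 100, a replicate block, halved RNA counts, ratios per kilobase, glmTreat, subsets of replicates and well-measured genes alone. Tables and figures were made with Python 3.11.15, pandas 2.3.3, numpy 2.4.6 and matplotlib 3.10.9. Some genes that the naming rule selects are not reported here.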

Additional observations from a re-analysis of the deposited data

Results flagged for a closer look

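Within the 6 control cultures, 188 series of ratios (genes and list medians) were tested for 1 culture far from the others, and 11 were found, where chance gives about 1 in 20, or 9.4. The lone values were 9.21 for Rpl9-ps6 (culture 6), 8.20 for Tpm3-rs7 and −1.24 for Tnc and 0.031 for Kmt5c (culture 1), −6.48 for Metrn, −0.86 for Psmd7, −0.85 for Ppp1r15a and −3.02 for Cdk16 (culture 4), 0.56 for Anxa3 (culture 3) and 2.04 for Hnrnpf (culture 5). The glycolysis list had a median of 0.66 above the median gene in culture 4. Metrn rests on few footprints, with 4.94 CPM on average.

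Among the mRNAs named for their level in control cells, 15 differed in translational efficiency with torin 1, by the interaction test in edgeR, all downwards. Of ribosomal protein genes and copies these were Rps27rt (−1.90), Rpl22l1 (−1.57), Rpl9-ps6 (−1.55), Rps18-ps5 (−1.46), Rps23rg1 (−1.21), Rpl21 (−1.21) and Rps2 (−1.12), and of predicted genes Gm11808 (−1.34) and Gm2000 (−1.22). Translation factors were Eef1b2 (−1.75), Eif4b (−1.21) and Eif4ebp2 (−0.80), and the others were Qars (−1.02), Tlcd1 (−0.73) and Cct4 (−0.58), all on the log2 scale. With replicates 1 to 4 alone, Gm11808 (adjusted p = 0.17), Rpl9-ps6 (0.070) and Rps27rt (0.36) no longer passed, at −1.27, −1.44 and −2.0. Between Ctu1 iKO and control cultures, Acta2 differed by −1.68.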

How the results depend on the processing

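The scaling decided how many mRNAs were high or low. High and low counts were 1147 and 1340 with DESeq2, 1059 and 1448 with TMM, 1092 and 1405 when centred on the median gene, and 1909 and 1634 per kilobase, while well-measured genes alone, whose RNA minimum takes out high ratios by construction, gave 64 high. TMM moved the median gene by 0.38. The other alternatives gave 391 to 691 high and 1801 to 2692 low genes, the replicate block 552 and 2617, and leaving out 1 replicate 569 to 587 and 2529 to 2589. Between Ctu1 iKO and control the higher and lower counts were 9 and 20 with DESeq2, 1 and 5 with the replicate block and 0 and 0 with replicates 1 to 3; leaving out 1 replicate gave 1 to 2 higher (2 without control replicate 3) and 2 to 4 lower, with 2 without Ctu1 iKO replicate 3, 4 or 5 or control replicate 4, 5 or 6. For torin 1, genes higher were 30 with DESeq2, 46 with library totals, 49 with the replicate block and 5 with replicates 1 to 4. Of 1354 values of the 151 named genes under alternatives, 1295 kept their direction and side of the threshold, 16 lost and 2 gained significance, and 25 moved by more than 1 SD, all 25 towards 0 with a pseudocount of 1 CPM. Signs turned per kilobase for mt-Nd2 (−0.42), mt-Co1 (−0.47), mt-Nd4 (−0.23), mt-Nd5 (−0.12), Etf1 (0.070), Eif4ebp2 (0.59), Sdhd (0.20), Hspb8 (0.10), Gins2 (0.52), Mafk (0.68) and Cdk6 (2.69). Values per kilobase are relative to the median gene and the reported ratios to equal shares. Lengths and the change of zero point therefore both enter by construction. With TMM signs turned for mt-Cytb (0.18), Eif3b (0.13), Kars (0.054) and Cdk6 (0.0915), and when 1 culture was left out for mt-Co1 (range −0.039 to 0.24). Apart from the lengths, the zero point and the fewer genes, the cause of these shifts was not tested.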
